A study of Mus musculus with 8 samples.

Results

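Nes-high cells were the SN4741 cells kept at 39 °C that gave the largest share of their transcripts from Nes, the gene of the intermediate filament protein nestin. They were chosen by their Nes level, as the top 10% of the cells of each 39 °C library by the share of unique molecular identifiers (UMIs, the tags that mark single captured transcripts) that came from Nes, among cells with at most 15% mitochondrial UMIs, 200 to 6000 genes and at least 5000 UMIs. There were 811 such cells among 8133 filtered cells at 39 °C, and among 19125 cells deposited for all 8 libraries. Replicates 1 to 4 at 39 °C gave 94, 238, 231 and 248 of them. Within each library they were compared with the Nes-zero cells, which had 0 Nes UMIs and numbered 386, 1236, 1168 and 1363. The other 3169 cells with a Nes UMI lay in between.

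SN4741 is a mouse line described as clonal and labelled as neural precursor cells of WT genotype, that was made from embryonic substantia nigra of mice with a temperature-sensitive SV40 large T antigen under the tyrosine hydroxylase promoter. Every cell of both groups carries that transgene, and its transcripts were not analysed here. The study profiled 4 libraries kept at 37 °C in 10% fetal bovine serum and 4 libraries that were moved to 39 °C and 0.5% serum 24 h after passage and harvested after 48 h. Temperature and serum therefore cannot be told apart. The line has an abnormal and unstable karyotype, and the sources do not say whether libraries of a temperature were separate cultures, so p-values measure the spread between these libraries only.

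Nestin is an intermediate filament protein that assembles with partners such as vimentin. It is widely used as a marker of neural stem and progenitor cells and is usually lost as these become neurons or glia. It is also made in other immature or repairing tissues, including muscle precursors, pericytes and activated mesenchymal cells.

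The share that chose these cells had no gap at the limit. The lowest Nes share among Nes-high cells was 251, 274, 282 and 292 CPM (UMIs of the gene per 1000000 UMIs) in replicates 1 to 4, and the highest share just outside was 246, 274, 282 and 292 CPM. Within 10% of the limit lay 15, 35, 36 and 32 cells on the inside and 13, 42, 49 and 37 cells on the outside. A Nes-high cell held from 2 to 100 Nes UMIs, with medians of 7, 4, 5 and 4. The single cell with 100 was in replicate 3, where the next had 30. Nes-high cells held 49.0 to 52.6% of the Nes UMIs of their library and 10.2 to 11.04% of all its UMIs. All these values follow from the choice and carry no test. Nes lies on chromosome 3 at 87971078 to 87980451 (GRCm38, plus strand), and over all filtered cells it stood at 111 ± 5.05 CPM at 39 °C against 467 ± 56.3 at 37 °C (mean ± SD, n = 4 libraries each).

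To read Nes from molecules that had not chosen the cells, each cell's UMIs were divided at random into a choosing set and a held-out set. Both groups of cells were chosen anew from the choosing set alone, so they differ from the groups defined above. The newly chosen Nes-zero cells numbered 553, 1607, 1532 and 1753 in replicates 1 to 4. In the held-out set, the newly chosen Nes-high cells had Nes at 447, 374, 445 and 364 CPM. The newly chosen Nes-zero cells had 53.4, 60.4, 57.3 and 66.2 CPM. The groups did not overlap, and the ratio was 6.95 ± 1.34 (mean ± SD, n = 4), so the difference in Nes was present in molecules outside the choice. Cells with 0 Nes UMIs in the choosing set thus still gave Nes UMIs in the held-out set.

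Nes-high cells were deeper than Nes-zero cells. Their median UMI count was 12046 ± 3927 against 9844 ± 3408 (SD over 4 libraries), a within-library difference of 2202 ± 801 that was positive in 4 of 4 libraries. Median genes per cell were 3649 against 3206, and the median mitochondrial share was 7.90% against 8.57%. With 4 libraries the two-sided exact permutation test over 16 sign changes cannot go below p = 0.13, which each of these 3 measures gave, also after Benjamini-Hochberg adjustment. Replicate 1 had the fewest cells and the deepest ones. A shallow cell more readily shows 0 Nes UMIs, so these differences are not independent of the choice. Against all other cells of the library the difference was smaller, at 827 ± 516 UMIs and 172 ± 87.3 genes. Since depth moved with the choice, the gene tests were also run against Nes-zero cells matched in UMIs within the library.

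Nes-high cells were less often assigned to G1 and more often to S phase, the phase of DNA replication. In replicates 1 to 4, 68.1, 65.5, 73.6 and 63.7% of Nes-high cells were assigned to G1, against 92.0, 88.8, 88.5 and 88.3% of Nes-zero cells. The within-library difference was -21.7 ± 4.53 percentage points (SD, n = 4), negative in 4 of 4 libraries. S phase held 27.1 ± 4.53% against 7.35 ± 0.96%, a difference of 19.7 ± 4.81 points that was positive in every library. G2M held 5.19% against 3.24%, a difference of 1.96 ± 0.60 points. Each gave p = 0.13 in the two-sided exact permutation test, the smallest it allows, and the same after adjustment over the 3 phases. The G2M difference turned to -7.94 points when phases were scored on the 39 °C cells alone, whereas G1 and S kept their directions at -14.9 and 22.8 points.

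Read the other way, S-phase cells carried the most Nes. Over all filtered cells at 39 °C, Nes stood at 97.9 ± 8.04 CPM in G1 cells, 217 ± 15.8 in S cells and 120 ± 11.4 in G2M cells (SD, n = 4), and the S values did not overlap either of the others. Nes-high cells made up 24.1% of S cells, 12.4% of G2M cells and 7.97% of G1 cells. With phases scored on the cells of both temperatures together, G1 cells were nonetheless the larger part of the Nes-high cells in every library. Scored on the 39 °C cells alone, G1 held 44.7, 40.8, 46.8 and 45.2% of Nes-high cells in replicates 1 to 4. S phase then held 46.8, 48.7, 41.1 and 45.2% of them. At 37 °C, where the same rule was applied to each library, the top 10% were also less often in G1 (18.1 against 36.3%) and more often in S (56.2 against 32.5%).

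**Figure D1:**
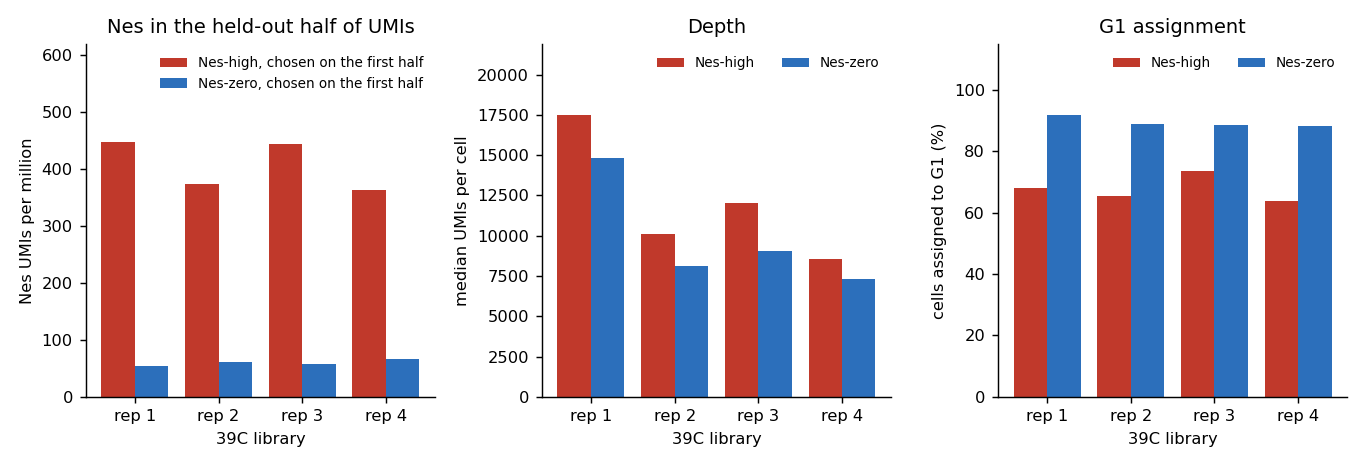
Nes CPM in the held-out UMIs (left), median UMIs per cell (middle) and the percentage of cells assigned to G1 (right) in each 39 °C library, with Nes-high cells in red and Nes-zero cells in blue; each bar is 1 library's value. The left panel shows groups chosen anew on the choosing set of UMIs, and the other panels show the groups chosen on all UMIs. In every library the Nes-high cells had more held-out Nes, more UMIs and a lower G1 share, with replicate 3 showing the smallest G1 gap.

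Across the transcriptome the 2 sets of cells differed widely. UMIs were summed per library over each set and tested in edgeR's quasi-likelihood model with the library as a block, over 11860 genes without Nes. At a Benjamini-Hochberg adjusted p under 0.05, 5051 genes were called (42.6%), 2531 higher (21.3%) and 2520 lower (21.2%) in Nes-high cells. A log2 fold change over 1 in size was reached by 312 called genes that were higher (2.63% of those tested) and 305 that were lower (2.57%), 5.2% in all. For 34.6% of genes the 4 Nes-high and the 4 Nes-zero values did not overlap. Against Nes-zero cells matched in UMIs 4067 of 10798 genes were called (37.7%; 18.8% higher and 18.9% lower), and against those matched in both phase and UMIs 3381 of 10803 (31.3%). The match in phase and UMIs was incomplete. Replicate 1 had 90 matched Nes-zero cells for 94 Nes-high cells. Median UMIs were 16533.5, 9764.5, 11790 and 8228.5 against 17526.5, 10080.5, 12050 and 8529 in replicates 1 to 4. With phases scored on the 39 °C cells alone, S held 36.7, 37.0, 29.4 and 41.5% against 46.8, 48.7, 41.1 and 45.2%.

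Among genes with at least 50 CPM, here scaled by TMM factors, in the higher set, Acta2, the actin of smooth muscle and myofibroblasts, had the largest rise. It stood at 109, 173, 127 and 141 CPM in Nes-high cells of replicates 1 to 4 and at 4.58, 6.29, 6.31 and 6.26 CPM in Nes-zero cells. The lowest Nes-high library was far above the highest Nes-zero library. The log2 fold change was 4.54 ± 0.09 (SE; edgeR adjusted p = 8.47e-58). It was 3.61 when cells were chosen on the choosing set and Acta2 was read from the held-out set, and 3.48 with cells thinned to 5000 UMIs, called in both. Acta2 lies on chromosome 19 at 34241090 to 34255590 (GRCm38, minus strand).

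The other 9 of the 10 largest rises belonged to varied functions. Actg1, a cytoplasmic actin, stood at 3470, 3509, 3113 and 3293 CPM in Nes-high cells and at 911, 1054, 1045 and 1045 CPM in Nes-zero cells. On the log2 scale it rose by 1.72 ± 0.03 (edgeR adjusted p = 1.55e-60). Cnn2, an actin-binding calponin, rose by 1.54 ± 0.04 on the log2 scale. Lox, which cross-links collagen and elastin, rose by 1.68 ± 0.09 and Timp1, an inhibitor of matrix metalloproteinases, by 1.58 ± 0.05. Ankrd1, a well-known target of the YAP and TEAD regulators, rose by 2.04 ± 0.06, with 255, 175, 203 and 159 CPM against 60.3, 46.1, 42.5 and 42.9 CPM. Phgdh, which starts serine synthesis, rose by 2.00 ± 0.08 and S100a4, a calcium-binding protein, by 1.70 ± 0.04. Pclaf, a partner of the replication clamp PCNA, rose by 2.69 ± 0.13 and Lmnb1, which encodes lamin B1, by 1.55 ± 0.09. Against cells matched in phase and UMIs Pclaf rose by 1.43, and within G1 cells Lmnb1 rose by 0.88. In none of the 10 did the Nes-high and Nes-zero libraries overlap, beside 34.6% of all genes tested that did not overlap. The 10 were chosen for large change in the same direction in all libraries, so this follows largely from the choice.

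The 10 largest falls were led by Depdc7. It stood at 15.8, 8.60, 12.9 and 10.9 CPM in Nes-high cells and at 75.7, 57.9, 58.8 and 53.7 CPM in Nes-zero cells. On the log2 scale it fell by 2.36 ± 0.11 (edgeR adjusted p = 4.41e-31). Slc4a11, a membrane transporter, fell by 1.82 ± 0.10 and Man2b1, a lysosomal mannosidase, by 1.62 ± 0.06. Ckmt1, a mitochondrial creatine kinase, fell by 1.59 ± 0.07, with 37.4, 40.4, 37.2 and 36.7 CPM against 128, 120, 110 and 103 CPM. The adhesion gene Nectin4 changed by -1.58 ± 0.10 and the Notch ligand Jag2 by -1.54 ± 0.10. Synm, which encodes synemin, a filament protein that assembles with vimentin or desmin, fell by 1.42 ± 0.06, and Krt7, a keratin, by 1.39 ± 0.09. The autophagy gene Atg9b and 1700007K13Rik changed by -1.41 ± 0.08 and -1.49 ± 0.06. None of these 10 overlapped between the sets either, beside 34.6% of all genes. All 20 genes kept their direction and their call against Nes-zero cells matched in phase and UMIs, beside 31.3% of all genes called there. That fit used the same Nes-high cells, and the 20 were chosen as the largest changes, so neither count is an independent test.

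**Figure D2:**
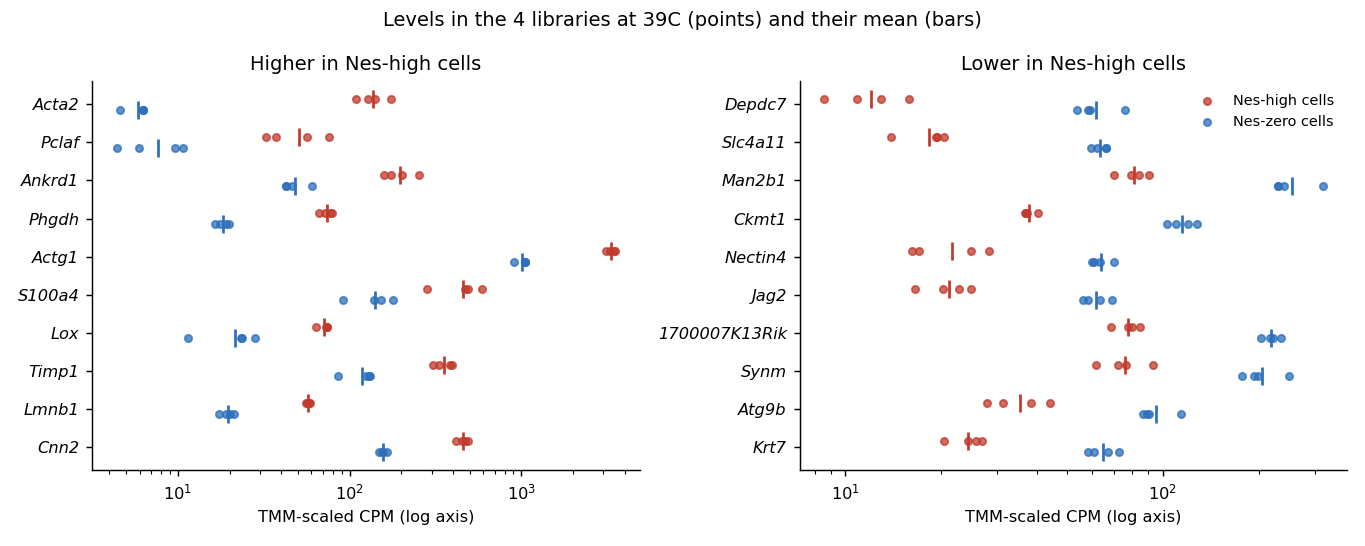
TMM-scaled CPM (log axis) of the 10 largest rises (left) and the 10 largest falls (right) in Nes-high cells (red) and Nes-zero cells (blue) at 39 °C; points are the 4 libraries and vertical bars their mean. The red and blue points of a gene do not overlap for any of the 20 genes, which were chosen for large change. Of all genes tested, 34.6% did not overlap.

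A list of contractile cytoskeleton genes that includes Srf, the gene of serum response factor (SRF), was higher throughout. SRF is the transcription factor that drives many of them through a sequence called the CArG box. All 17 tested members of this list of 20 were called higher and 0 lower (100%, beside 42.6% of all genes). Their median log2 fold change was 1.29, beside -0.01 over all genes. SRF targets outside this list were not examined as a set. The separate list of 20 immediate early genes had 3 called higher and 10 lower. The list's summed level was 15538 to 16968 CPM in the Nes-high libraries and 6625 to 7394 in the Nes-zero libraries. Actb, the other cytoplasmic actin, rose by 1.42 ± 0.03. Tagln, the smooth muscle protein transgelin, stood at 28.2 ± 10.4 CPM against 4.91 ± 2.15 CPM, while Myl9, a myosin light chain, stood at 12.4 ± 7.36 CPM against 0.84 ± 0.42 CPM. Myh11, Cnn1 and Actg2, further smooth muscle genes, were too low to be tested. Actin genes are closely alike in their coding parts, and how reads shared between them were counted was not tested.

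Of the 17 tested contractile genes 15 had an entry among the RefSeq promoters (GRCm38.p6), and 5 of these held a CArG box in the 250 bases before the start of the gene. The same motif was in 1.39% of the 9147 tested genes with a promoter entry and in 1.62% of all 27025 genes of the table. The list was drawn up around SRF as well as contraction, so its share of boxes is not independent of that choice. The motif reads the same in form on both strands. These 5 upstream sequences are shown because their genes rose together, each 5′ to 3′ on the strand of the gene with the CArG box in capitals. They cover chr11:120348496-120348745 (Actg1, minus strand), chr10:79988350-79988599 (Cnn2, plus), chr14:20929148-20929397 (Vcl, plus), chr17:46556163-46556412 (Srf, minus) and chr2:156775214-156775463 (Myl9, plus).
Actg1: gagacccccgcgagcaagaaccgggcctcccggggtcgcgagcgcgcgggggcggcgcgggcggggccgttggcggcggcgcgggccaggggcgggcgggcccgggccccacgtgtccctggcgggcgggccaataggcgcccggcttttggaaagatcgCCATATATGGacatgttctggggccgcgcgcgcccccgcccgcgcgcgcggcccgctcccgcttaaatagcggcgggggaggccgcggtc
Cnn2: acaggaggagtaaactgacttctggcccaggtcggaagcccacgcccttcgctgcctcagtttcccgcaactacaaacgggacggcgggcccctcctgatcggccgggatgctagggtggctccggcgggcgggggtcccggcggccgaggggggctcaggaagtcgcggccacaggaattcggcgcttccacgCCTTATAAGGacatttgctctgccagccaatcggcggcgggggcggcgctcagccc
Vcl: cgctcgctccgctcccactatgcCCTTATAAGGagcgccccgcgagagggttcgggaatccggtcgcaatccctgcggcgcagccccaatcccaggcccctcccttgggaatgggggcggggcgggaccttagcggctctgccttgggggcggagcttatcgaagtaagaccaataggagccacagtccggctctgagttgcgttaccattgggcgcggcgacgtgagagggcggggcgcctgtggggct
Srf: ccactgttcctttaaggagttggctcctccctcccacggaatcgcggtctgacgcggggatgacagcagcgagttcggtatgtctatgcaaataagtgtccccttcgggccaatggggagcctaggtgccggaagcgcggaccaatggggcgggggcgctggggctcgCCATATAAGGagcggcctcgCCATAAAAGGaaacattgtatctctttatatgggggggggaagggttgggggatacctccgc
Myl9: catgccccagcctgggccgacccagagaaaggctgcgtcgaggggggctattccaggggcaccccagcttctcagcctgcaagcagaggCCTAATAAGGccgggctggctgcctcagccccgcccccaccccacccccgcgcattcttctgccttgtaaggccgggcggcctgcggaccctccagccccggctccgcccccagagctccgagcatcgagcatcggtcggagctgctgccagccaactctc

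The box began 90 bases before the start of Actg1, 56 before that of Cnn2, 227 before that of Vcl and 161 before that of Myl9, while Srf had 2 boxes that began 82 and 62 bases before its start. Vcl, which encodes the adhesion protein vinculin, rose by 1.18 ± 0.05 on the log2 scale, Srf itself by 0.89 ± 0.14 and Myl9 by 4.03 ± 0.29 (edgeR adjusted p = 3.80e-33, 1.44e-07 and 9.08e-21). Vcl, Srf, Tagln and Myl9 were named after their values were seen. Acta2 had no match to this form of the motif in its 250 bases. Of the 220 genes with a promoter entry that were called higher by over 1 on the log2 scale, 11 held a box (5.00%), and of the 228 called lower by as much, 3 did (1.32%). A match describes letters in a window and was not tested as a binding site.

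Genes of the extracellular matrix and of mesenchymal cells were higher in the main. Of 16 tested members 14 were called higher and 1 lower (93.8%, beside 42.6% of all genes), with a median log2 fold change of 0.93. Col1a2 and Col1a1, the chains of type I collagen, rose by 1.51 ± 0.04 and 0.91 ± 0.03, Sparc by 0.80 ± 0.03 and Fbn1, which encodes fibrillin, by 1.37 ± 0.07. Their levels were 373 ± 34.6 CPM against 131 ± 14.3 CPM for Col1a2 and 895 ± 44.1 CPM against 476 ± 14.0 CPM for Col1a1. The member called lower was Tgfbi. The list's summed level ran from 6285 to 6611 CPM in the Nes-high libraries and from 3398 to 3883 in the Nes-zero libraries. Dcn and Lum, fibroblast markers of the same list, were too low to be tested, and Lum was at 0 in all libraries. Of 14 YAP and TEAD targets, 10 were called higher and 3 lower (92.9%, beside 42.6% of all genes), with a median of 0.45. Ctgf rose by 1.47 ± 0.09, Amotl2 by 1.01 ± 0.06 and Gadd45b by 0.95 ± 0.08. Of the 9 tested targets with a promoter entry 6 held the TEAD motif GGAATG, read on both strands, in the 250 bases, against 12.5% of all tested genes with an entry. These genes were listed as TEAD targets, so their share is not independent of the list.

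Targets of the tumour suppressor p53 were lower. Of 30 tested members 0 were called higher and 27 lower (90%, beside 42.6% of all genes). The median log2 fold change was -0.43, with library medians between -0.45 and -0.39. Pltp, a phospholipid transfer protein, stood at 549 ± 61.7 CPM against 1062 ± 88.5 CPM (-0.95 ± 0.03). Btg2, an antiproliferative gene, changed by -0.84 ± 0.04, Perp, a desmosomal and apoptotic gene, by -0.67 ± 0.03 and Mdm2, the ligase that degrades p53, by -0.59 ± 0.03. Among inhibitors of cyclin-dependent kinases, 2 of 8 were called higher and 4 lower (75%, beside 42.6% of all genes). Against cells matched in phase and UMIs 1 of 7 was called higher and 2 lower (42.9%, beside 31.3%). In the held-out set 1 of 8 was called higher and 2 lower (37.5%, beside 26.8%). Cdkn2c, an inhibitor of the kinases of G1, fell by 1.24 ± 0.08, and Cdkn1a, also a p53 target, fell by 0.28 ± 0.03 from 2273 CPM. Cdkn2a went the other way at 0.26 ± 0.03.

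Replication genes were higher in Nes-high cells. The S and G2M lists also assigned the phases, so their direction is not independent of the phase shares. Of 42 S-phase genes 38 were called higher and 0 lower (median 0.80), and of 52 G2M genes 33 were called higher and 6 lower (median 0.52). The share called was 90.5% and 75%, beside 42.6% of all genes. Mcm5, a subunit of the replicative helicase, rose by 1.73 ± 0.10 and Uhrf1, which maintains DNA methylation, by 1.96 ± 0.14. Top2a, the topoisomerase of dividing cells, rose by 1.52 ± 0.07, while the tubulin gene Tubb4b fell by 0.67 ± 0.03. Mki67, the proliferation marker, stood at 32.8, 39.6, 43.5 and 56.7 CPM against 9.98, 9.80, 15.6 and 14.8 CPM, a log2 fold change of 1.78 ± 0.11. Against cells matched in phase and UMIs the rises were smaller, at 0.85 for Mcm5, 1.14 for Uhrf1, 0.72 for Top2a and 0.80 for Mki67. Among cells assigned to S or G2M alone, Mki67 was at 134 ± 32.5 CPM in Nes-high cells and 123 ± 27.8 CPM in Nes-zero cells, so the levels overlapped there.

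Limited to cells assigned to G1, 3801 of 11638 genes were called (32.7%), 15.9% higher and 16.8% lower. The contractile list kept 17 of 17 called higher with a median of 1.26, the matrix list 13 of 16 (1 lower) and the p53 list 26 of 30 called lower (1 higher). The S-phase list dropped to 12 called higher and 2 lower of 41, and the G2M list to 9 higher and 8 lower of 49. In G1 cells Mki67 missed the threshold (log2 fold change 1.20, edgeR adjusted p = 0.078), as did Uhrf1 (0.65, adjusted p = 0.080). Cells were assigned to G1 by low scores on the S and G2M lists, so the lost calls of such genes follow in part from the restriction. Mki67 was also near 0 there, at 2.58 CPM in Nes-high and 0.95 CPM in Nes-zero cells.

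**Figure D3:**
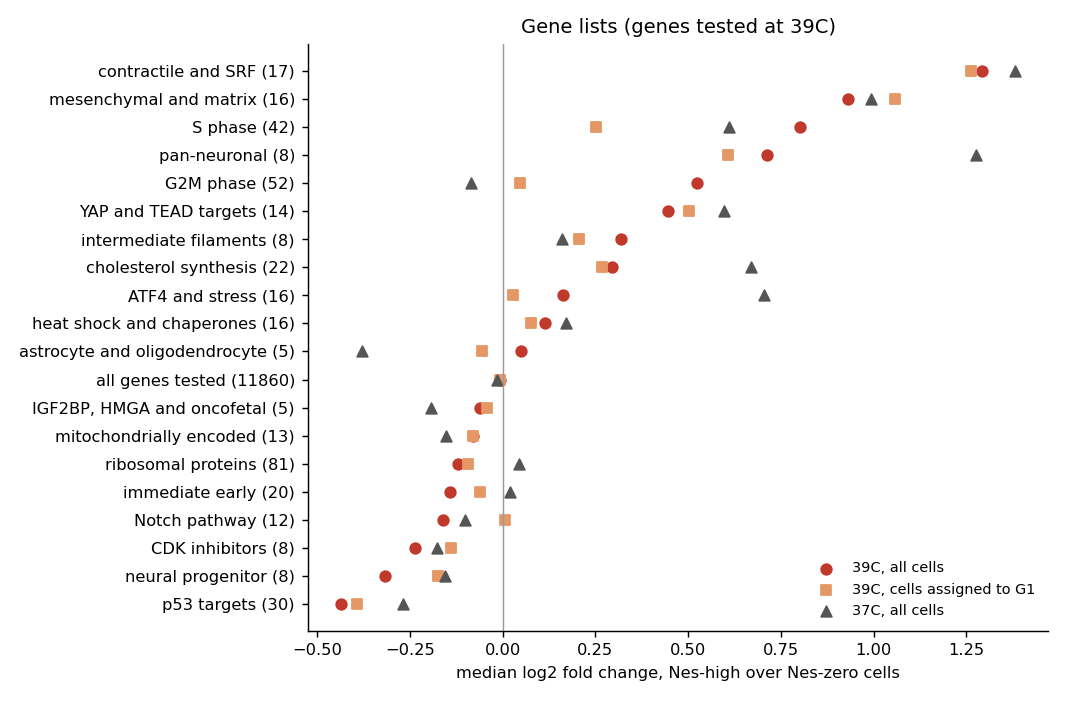
Median log2 fold change, Nes-high over Nes-zero cells, of each gene list with at least 5 genes tested at 39 °C (their number in brackets), for all cells at 39 °C (red circles), cells assigned to G1 at 39 °C (orange squares) and all cells at 37 °C (grey triangles). The contractile list had the highest median at 39 °C (1.29) and the p53 targets the lowest (-0.43), and both stayed on their side in G1 cells and at 37 °C.

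Several neural progenitor genes had no UMIs, and others were lower in Nes-high cells. Pax6, Hes5, Fabp7, Sox3 and Rfx4 had 0 UMIs in all libraries of both sets. Of 8 tested progenitor genes 1 was called higher and 5 lower, with a median log2 fold change of -0.32, beside 21.3% and 21.2% of all genes. In G1 cells 2 were called higher and 3 lower (median -0.17), and in thinned cells and in the held-out set 1 and 2. Sox2, a core factor of neural stem cells, stood at 57.0 ± 8.13 CPM against 84.0 ± 4.53 CPM (-0.57 ± 0.07), and the receptor Notch1 at 292 ± 27.1 CPM against 515 ± 15.7 CPM (-0.83 ± 0.04). Hes1, a Notch target, was called lower at -0.20 ± 0.05 with overlapping libraries, and the call was lost in G1 cells (-0.04), in the held-out set (-0.12) and in thinned cells (-0.14). Cdh2, which encodes N-cadherin, was the member called higher, at 0.79 ± 0.09. The list's summed level was 605 to 805 CPM in the Nes-high libraries and 882 to 1009 in the Nes-zero libraries. In the Notch pathway 2 of 12 tested genes were called higher and 5 lower (58.3%, beside 42.6% of all genes), among them the receptor Notch3 (-0.80 ± 0.07). In G1 cells 1 was called higher and 3 lower (33.3%, beside 32.7% of all genes). Lfng, which modifies Notch, stood at 6.19 CPM against 2.77 CPM, and its call was lost in the held-out set (0.28).

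Intermediate filament genes moved in both directions. Vim, the gene of vimentin, was not called (log2 fold change -0.04), and Synm fell as given above. Of 8 tested intermediate filament genes, a list that also holds nuclear lamins and keratins, 4 were called higher and 2 lower (75%, beside 42.6% of all genes). Against cells matched in phase and UMIs 2 of 7 were called higher and 1 lower (42.9%, beside 31.3%). The held-out set gave the same counts (42.9%, beside 26.8%). The lamin gene Lmna rose by 0.35 ± 0.03. Krt19 was called at 0.42 ± 0.12 with overlapping libraries, and the call was lost against cells matched in phase and UMIs (0.39), in the held-out set (0.29), in thinned cells (0.24) and with DESeq2 (0.43).

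Several broadly neuronal genes were higher, while 8 of the 16 genes listed were too low to be tested. Of 8 tested, 5 were called higher and 1 lower (median 0.71; 75% called, beside 42.6% of all genes). Map1b, a microtubule protein, stood at 115 ± 6.89 CPM against 61.3 ± 8.42 CPM (0.89 ± 0.06), Ncam1, an adhesion molecule, at 137 ± 7.38 CPM against 89.4 ± 4.18 CPM (0.60 ± 0.06) and Stmn2, a microtubule regulator, at 72.0 ± 17.8 CPM against 40.8 ± 7.94 CPM (0.83 ± 0.07). Dcx, Snap25 and Elavl4 had 0 UMIs in both sets. Celf5, an RNA-binding protein of neurons, was the member called lower, at 111 ± 6.05 CPM against 202 ± 9.02 CPM (-0.87 ± 0.05). Of the genes that the study named for the shift to 39 °C, Id2 (-0.42 ± 0.05) and Cdh13 (-0.48 ± 0.05) were also called lower, whereas Hmga2 (-0.06 ± 0.05, edgeR adjusted p = 0.34) and Irx3 (-0.08 ± 0.04, adjusted p = 0.15) were not called.

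Several dopaminergic markers were at or near 0, and others were low. Th, Slc6a3, Pitx3 and Lmx1b had 0 UMIs in the Nes-high cells of all libraries together and 3, 1, 1 and 3 in the Nes-zero cells. The Nes-high cells gave 9726012 UMIs in all, so a count of 0 allows up to 0.308 CPM. Aldh1a1 stood at 0.51 CPM against 0.93 CPM and was not called. Nr4a2 stood at 3.23 ± 1.43 CPM against 5.20 ± 1.248 CPM (-0.71 ± 0.27, edgeR adjusted p = 0.0297) and Foxa2 at 16.6 ± 3.95 CPM against 12.7 ± 1.09 CPM (0.36 ± 0.14, adjusted p = 0.0299), both with overlapping libraries. Without replicate 2 the call of Nr4a2 was lost at -0.37, and the call of Foxa2 was lost without replicate 1, 2 or 3. Both calls were also lost in G1 cells (-0.69 for Nr4a2 and 0.24 for Foxa2), against cells matched in phase and UMIs (-0.78 and 0.40), in the held-out set (-0.30 and 0.18) and in thinned cells (-0.14 and -0.02), and that of Nr4a2 against cells matched in UMIs (-0.61).

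Markers of other cell types were few. Acta2, Tagln and Cspg4, which are also markers of smooth muscle and pericytes, were tested and are given with other lists. In the list of endothelial, microglial and myoblast markers only Cx3cr1 could be tested, at 2.12 CPM against 0.73 CPM. Cdh5, Kdr, Tie1, Ptprc, Myod1 and Myf5 had 0 UMIs in both sets. That list's summed level was 2.33 to 2.88 CPM in Nes-high libraries and 1.15 to 2.78 in Nes-zero libraries. Of 5 tested astrocyte and oligodendrocyte genes 0 were called higher and 1 lower, Cspg4 at -0.38 ± 0.10 (20% called, beside 42.6% of all genes). The call of Cspg4 was lost in the held-out set (-0.28) and in thinned cells (-0.20). Gfap, Aqp4, Olig1, Olig2, Sox10 and Mog were at 0. Their part in the results was not tested.

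Metabolic and stress lists had medians nearer to 0 than the contractile and matrix lists. Of 22 genes of cholesterol synthesis 12 were called higher and 0 lower (median 0.30), among them Sqle, which oxidises squalene (1.01 ± 0.10), and Fdps, a prenyl diphosphate synthase (0.79 ± 0.08). Of 16 heat shock and chaperone genes 9 were called higher and 3 lower: the mitochondrial chaperone Hspd1 rose by 0.89 ± 0.04 and the endoplasmic reticulum chaperone Hspa5 by 0.67 ± 0.03, while Cryab fell by 0.32 ± 0.03. Of 16 genes linked to the stress factor ATF4, 6 were called higher and 5 lower. The serine synthesis gene Psat1 rose by 1.48 ± 0.11 beside Phgdh, whereas the stress gene Ddit3 fell by 0.70 ± 0.07. Of 20 immediate early genes 3 were called higher and 10 lower, with Egr1 at -0.60 ± 0.05 and Junb at -0.43 ± 0.04, and with Klf2 at 2.30 ± 0.24 (3.65 against cells matched in UMIs) and Myc at 1.30 ± 0.13. Of 81 ribosomal protein genes 10 were called higher and 53 lower (median -0.12), and of 13 mitochondrially encoded genes 1 and 7 (median -0.08). For these lists in the order given, the share called was 54.5, 75, 68.8, 65, 77.8 and 61.5%, beside 42.6% of all genes. In thinned cells it was 31.8, 62.5, 37.5, 45, 75.3 and 61.5%, beside 24.1%.

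Nes-high cells varied among themselves in Acta2. With every cell thinned to 5000 UMIs, 16.02 ± 1.29% of Nes-high cells had an Acta2 UMI, against 1.73 ± 0.50% of Nes-zero cells and 3.94 ± 0.73% of the cells in between (SD, n = 4). Actg1, by contrast, was seen in 98.8% of Nes-high and 93.9% of Nes-zero cells. Nes-high cells held 55.7 ± 8.67% of their library's Acta2 UMIs with 10.2 to 11.04% of all UMIs, 32.9% of its Pclaf UMIs and 2.79% of its Depdc7 UMIs. Between 3.19 and 5.04% of Nes-high cells had 5 or more Acta2 UMIs after thinning. The cell richest in Acta2 held 9.52 to 28.8% of the Acta2 UMIs of the Nes-high cells of its library.

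The Acta2 level differed with the assigned phase among Nes-high cells. It was 167 ± 32.2 CPM (here as a share of all UMIs, without TMM factors) in those assigned to G1 and 75.8 ± 31.3 CPM in those assigned to S or G2M, with no overlap between the libraries of the 2 classes. Nes-zero cells were at 5.89 and 5.99 CPM. Pclaf showed the opposite order, at 3.26 CPM in G1 and 153 ± 41.5 CPM in S or G2M Nes-high cells, against 0.65 and 71.8 ± 18.5 CPM in Nes-zero cells. Depdc7 was lower in Nes-high cells in both classes, at 10.2 against 59.5 CPM in G1 and 16.1 against 78.8 CPM in S or G2M. These levels by phase are descriptions, since the phases were assigned from the same cells.

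**Figure D4:**
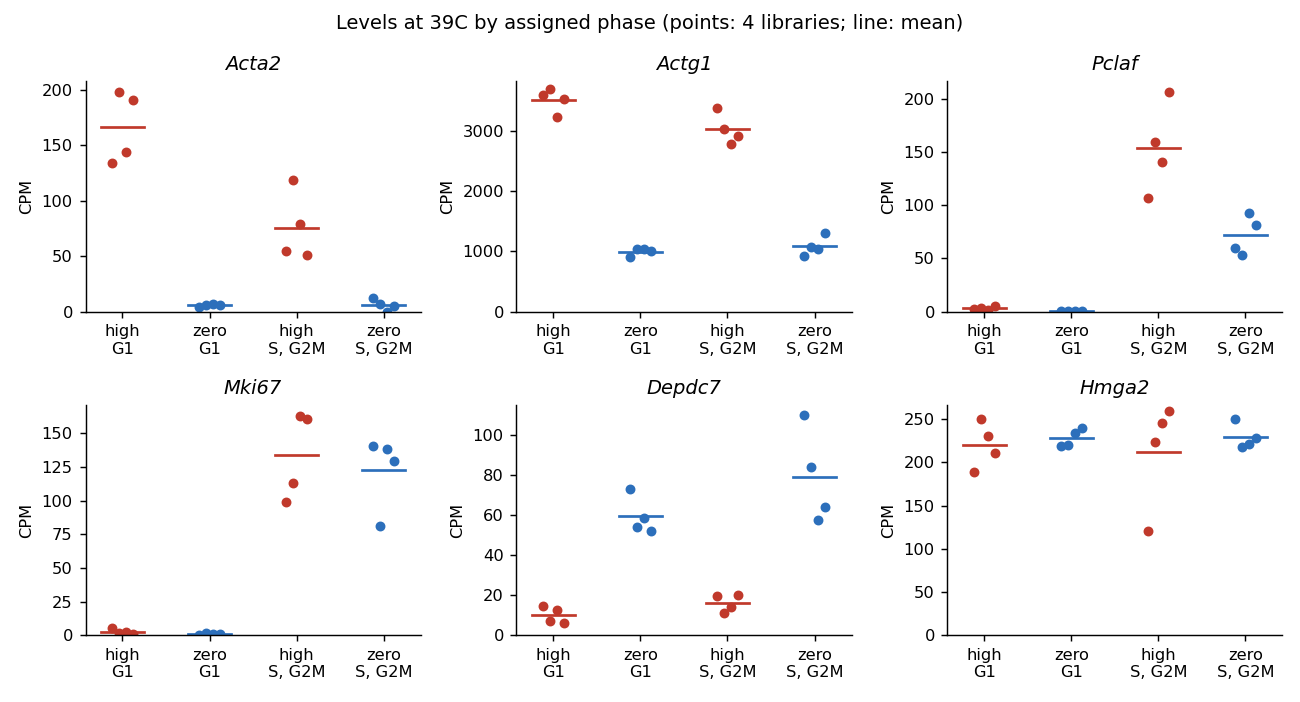
CPM, as a share of all UMIs, of 6 genes at 39 °C in Nes-high (red) and Nes-zero (blue) cells, split by cells assigned to G1 and cells assigned to S or G2M; points are the 4 libraries and lines their mean. Acta2 was highest in G1 Nes-high cells (167 on average), Pclaf in S or G2M Nes-high cells (153), and Mki67 and Hmga2 levels overlapped between Nes-high and Nes-zero cells of S or G2M.

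The same contrast in the 4 libraries at 37 °C, which took no part in the 39 °C comparison, gave 5568 called genes of 11068 (50.3%), 25.6% higher and 24.7% lower. With library totals in place of TMM factors 2325 were higher and 3273 lower. There the top 10% had Nes at 1247 to 1493 CPM, 14.0 to 19.9% of cells had 0 Nes UMIs against 40.7 to 54.8% at 39 °C, and the gap in depth was wider, with median UMIs of 18060 against 8915. All 20 of the largest rises and falls at 39 °C were called in the same direction at 37 °C. The contractile list had 17 of 17 called higher (median 1.38), the matrix list 13 of 16 with 1 lower (0.99), and the p53 targets 19 of 30 lower and 1 higher (-0.27). G2M genes did not share the pattern, with 15 called higher and 21 lower of 52 at 37 °C.

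Whether an effect differed between the temperatures was tested by an interaction term over all 16 sums, which called 2375 of 11561 genes (20.5%), 1322 with a more positive effect at 39 °C (11.4%) and 1053 with a more negative one (9.11%). With library totals in place of TMM factors the split was 1801 to 678. Acta2 had the larger rise at 39 °C, 4.54 against 3.02 at 37 °C, a difference of 1.53 ± 0.14 (edgeR adjusted p = 4.73e-15). Its level in Nes-high cells was nevertheless lower at 39 °C, 138 ± 27.3 CPM against 467 ± 38.4 CPM, on scales set separately for each temperature. Mki67 rose at 39 °C and was not called at 37 °C (0.03), a difference of 1.75 ± 0.12 (adjusted p = 1.86e-20). Hmga2 and Id2 were lower in Nes-high cells at 37 °C, by -1.68 and -1.87, and differed from 39 °C by 1.62 and 1.46. Of the 17 contractile genes 4 had a more positive and 7 a more negative effect at 39 °C, and of 52 G2M genes 29 and 3. Stmn2 and Lox had larger rises at 37 °C (2.39 and 2.78), differences of -1.55 and -1.09. Actg1 and Cnn2 were not called in this test, with differences of 0.01 and 0.15.

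**Figure D5:**
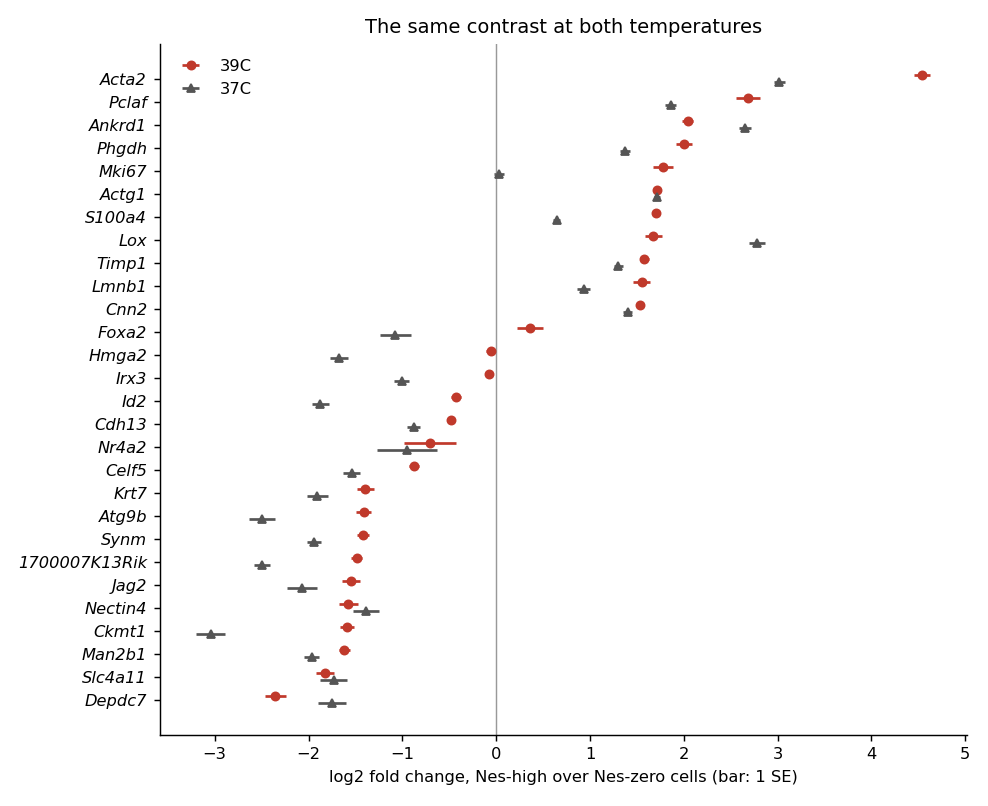
Log2 fold change, Nes-high over Nes-zero cells, of the 10 largest rises, the 10 largest falls and the tested genes that the study named, at 39 °C (red circles) and 37 °C (grey triangles), with bars of 1 SE. The rises and falls of the 20 genes share their side of 0 at both temperatures, whereas Hmga2, Irx3 and Id2 were far lower at 37 °C than at 39 °C.

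Since copies of a chromosome can differ between cells of an unstable line, the fold changes were set out by chromosome. The 594 genes of chromosome 3, which carries Nes, had a median log2 fold change of 0.009 beside -0.007 for the genes of all other chromosomes. It ranked 9th of 20, with the highest median on chromosome 12 (0.11) and the lowest on chromosome 7 (-0.09). Of 24 tested genes within 500000 bases of Nes, 6 were called higher and 7 lower, beside 21.3% and 21.2% of all genes. The largest change among them was that of Bglap and Bglap2, neighbouring osteocalcin genes, at -3.89 ± 0.36 and -2.38 ± 0.19. Their sequences are closely alike, so how their reads were divided is uncertain, and they were named after their values were seen.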

How the data were processed

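SN4741 cells were profiled by Chromium 3' V3 single-cell RNA sequencing in 8 libraries. The authors deposited filtered matrices of UMI counts for 31053 genes, made per the submitters' processing notes with Cell Ranger 3.0.1 on mm10. The 39 °C libraries held 22988911 to 28879724 UMIs in 1167 to 3557 cells. At most 5 cell barcodes were shared by any 2 libraries. Scrublet put 0 of 9801 cells over a score of 0.5, so doublets were not removed and leaving out the 219 highest scores was an alternative.

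Phases were assigned with Seurat 5.3.0 (42 S and 52 G2M genes found). UMIs were summed per library and set of cells, genes with a mean count of at least 5 were kept, and Nes was left out. edgeR 4.0.16 (R 4.3.3, TMM factors, quasi-likelihood test, library as a block) gave log2 fold changes with SE and Benjamini-Hochberg adjusted p over all genes tested. The sets of a library came from the same cells' pool, and deviations of same-library sums correlated at 0.133 to 0.306 at 39 °C and 0.100 to 0.272 at 37 °C, against at most 0.0379 between libraries, so the block pairs them. Shares and medians per library were compared by a two-sided exact permutation test over sign changes. The scripts were tested on simulated data. Named genes were the 10 largest rises and falls with at least 50 CPM in the higher set and the same direction in all libraries, up to 4 called members of each list, and genes the study named. Cells, lists and genes were chosen with earlier results of these data known. Alternatives covered scaling, filters, DESeq2 1.42.0, depth, phase, the choice of cells and leaving out each library. Intervals for a count of 0 used 3 counts and cover counting error only. Some withheld items are not reported here.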

Additional observations from a re-analysis of the deposited data

Results flagged for a closer look

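Of 96 series of 4 library values tested for a single library far from the others, 4 stood apart by Dixon's test, and chance alone gives about 1 in 20. The difference in G1 share was -14.9 percentage points in replicate 3 and between -24.6 and -23.3 points in the other libraries. On the log2 scale, with 1 CPM added, Jag2 was at -1.70 in replicate 4, Cdh2 at 1.09 in replicate 1 and Sqle at 0.92 in replicate 4.

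The effect of being Nes-high differed between 39 °C and 37 °C for 61 of the 86 named genes tested in edgeR's interaction term. The limit was a Benjamini-Hochberg adjusted p under 0.05 over all genes, which 20.5% of all genes passed. Most named genes were chosen by their change or p at 39 °C, 1 side of this contrast, so the count does not set them apart. The values that follow are the log2 fold change at 39 °C minus that at 37 °C. Among genes with estimates above 0 at both temperatures, called or not, the estimate was larger at 39 °C for Mki67 1.75, Acta2 1.53, Top2a 1.097, S100a4 1.07, Uhrf1 1.05, Mcm5 1.00, Psat1 0.96, Pclaf 0.84, Phgdh 0.63, Lmnb1 0.63, Gadd45b 0.50, Cdh2 0.42, Mcm6 0.35, Actb 0.30, Timp1 0.29, Cbx5 0.27, Sparc 0.21, Col1a2 0.20 and Lmna 0.20. It was smaller at 39 °C for Stmn2 -1.55, Lox -1.09, Idi1 -0.61, Ankrd1 -0.60, Map1b -0.57, Hspa5 -0.50, Krt19 -0.49, Ncam1 -0.47, Fbn1 -0.45 and Hsp90aa1 -0.20.

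Among genes with estimates below 0 at both temperatures, called or not, the estimate was nearer to 0 at 39 °C for Hmga2 1.62, Ckmt1 1.46, Id2 1.46, Atg9b 1.09, 1700007K13Rik 1.02, Irx3 0.93, Sox2 0.90, Celf5 0.68, Pltp 0.62, Jag2 0.53, Synm 0.52, Krt7 0.52, Cdh13 0.41, Ddit3 0.38, Cdkn1b 0.37, Man2b1 0.36, mt-Co1 0.25, Notch1 0.25 and Egr1 0.20. It was farther from 0 at 39 °C for Depdc7 -0.60, Btg2 -0.51, Tubb4b -0.32, Rpl19 -0.29, Rps27 -0.20, Cdkn1a -0.19, Mdm2 -0.17 and Rps19 -0.12. The direction of the estimate itself differed between the temperatures, called or not, for Foxa2 1.44, Cdkn2a 0.35 and mt-Nd1 0.19, and for Cryab -0.52 and Cspg4 -0.49. The gap in UMIs per cell between the sets was also wider at 37 °C, and its part in these differences was not tested.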

How the results depend on the processing

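The 5051 genes called at 39 °C became 3205 by DESeq2, 2742 with cells thinned to 5000 UMIs and 3049 when cells were chosen on one part of their UMIs and read from the other. Leaving out 1 library gave 4204 to 4699. At 37 °C thinning gave 3020 calls and leaving out 1 library 4814 to 5058. The difference between temperatures gave 808 calls with thinned cells, 1532 without the replicate block and 1937 to 2250 without 1 library. Without the replicate block 4322 genes were called at 39 °C and 4989 at 37 °C. Leaving out 1 library moved the difference in median UMIs from 1939 to 2536, in genes per cell from 394 to 503, in mitochondrial share from -0.754 to -0.552 points, in G1 share from -23.9 to -20.7, in S from 18.7 to 22.1 and in G2M from 1.78 to 2.23. The G2M difference was -7.94 with phases scored on the 39 °C cells alone, and the gene difference was -27.1 against cells matched in UMIs.

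Over 88 named genes, 2207 of 2267 values under other settings kept their direction and side of the threshold, 51 lost the call and 9 turned in direction, in 3 genes. Hmga2 ran from -0.135 to 0.015 without 1 library, turning to 0.015 without 39 °C replicate 1, and turned to 0.015 against cells matched in UMIs, 0.048 with at least 10000 UMIs and 0.036 with at most 10% mitochondrial UMIs. Irx3 turned to 0.015 against cells matched in UMIs, 0.062 in phase and UMIs, 0.082 in G1 cells and 0.085 with another draw of control genes. Foxa2 turned to -0.018 in thinned cells. The causes were not tested. The G1 fit with another draw, the phase shares with another draw and the fit without the cell richest in Nes were chosen after seeing the data.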

Other observations

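Small differences in median appeared between chromosomes. The 422 tested genes of chromosome 12 had a median log2 fold change of 0.11, with 125 called higher and 57 lower, and the 464 of chromosome 13 had 0.10, with 138 and 79. The 867 genes of chromosome 7 had -0.09, with 119 called higher and 211 lower, and the 954 of chromosome 2 had -0.08, with 152 and 263. The share called in either direction was 43.1% on chromosome 12, 46.8% on 13, 38.1% on 7 and 43.5% on 2, beside 42.6% of all genes (21.3% higher and 21.2% lower). Genes of a chromosome are not independent of each other, and these medians carry no test.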
